A study of Mus musculus with 8 samples.

Results

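The genes examined here encode the major histocompatibility complex (MHC) and the machinery that supplies it with peptides, in brown adipose tissue (BAT) of mice with cancer-associated cachexia. Members were taken from the count table by name, namely every gene whose symbol starts with H2- and is not marked as a pseudogene, plus B2m, Cd74, Ciita, Nlrc5, Tap1, Tap2, Tapbp, Tapbpl, Psmb8, Psmb9, Psmb10, Psme1, Psme2 and Erap1. This gave 57 genes of the 56953 in the table, of which 30 encode or resemble class I heavy chains and 12 class II chains. The symbol H2-K2 stands for 2 Ensembl entries, so the 57 genes carry 56 symbols. H2-Ke6 came in by its name alone and encodes a metabolic enzyme, not a presenting chain.

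RNA of whole BAT was sequenced in 4 control (CTR) and 4 cachectic (CAC) wild-type C57BL/6J mouse libraries. The labels do not say that each library came from a mouse of its own, so the p-values measure the spread between these libraries. CAC mice had received 3000000 Lewis lung carcinoma (LLC) cells under the skin of the right flank in PBS, CTR mice received PBS alone, and all were 8 to 10 weeks old at injection. Per the study's methods the mice were followed for 21 days and injected mice in which no tumor formed were left out. The labels allow for either sex and do not give it for a library. Total counts lay between 2454493 and 4827956 per library in CTR and between 1823167 and 3392538 in CAC, and the members held 0.114% to 0.159% of them. All 7 brown adipocyte markers were expressed, and their summed level was 14843 to 16621 CPM in the CTR libraries and 14580 to 16765 CPM in CAC. CPM are counts relative to library size, with the TMM factors of edgeR.

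MHC class I molecules sit on nearly every nucleated cell. They consist of a heavy chain (H2-K and H2-D in this strain) and the light chain β2-microglobulin, and they show peptides that the proteasome cuts in the cytosol and the TAP transporter moves into the endoplasmic reticulum. Class II molecules pair an alpha with a beta chain, are made mainly by dendritic cells, macrophages and B cells, and load peptides of engulfed protein in endosomes after the invariant chain CD74 is degraded. NLRC5 switches on class I genes and CIITA class II genes, and interferon-γ raises both. In fat tissue, macrophages and adipocytes have each been described as presenting cells.

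Both classes share a promoter plan, in which a Y box with the letters CCAAT lies close to the start. Of the members, 47 lie on chromosome 17 of GRCm38 between 33915899 and 37483552. RefSeq promoter windows (GRCm38.p6, 250 bases before to 50 bases after each start) were at hand for 40 of the 56 symbols. The stretches below end next to the start of H2-K1, B2m, H2-Aa and H2-Eb1 and are shown because they hold the elements counted next. Capitals mark the letters of any motif searched on both strands, which were CCAAT (Y box, ATTGG when read on the opposite strand), kappa B (the 11 capitals in the short sites further down), TTTC followed by any 2 bases and TTTC (interferon-stimulated response element, ISRE), TTCNNNGAA (GAS), and TGACGTCA or TGATGCAA (X2 box).
H2-K1, chr17:34000348-34000547, minus strand: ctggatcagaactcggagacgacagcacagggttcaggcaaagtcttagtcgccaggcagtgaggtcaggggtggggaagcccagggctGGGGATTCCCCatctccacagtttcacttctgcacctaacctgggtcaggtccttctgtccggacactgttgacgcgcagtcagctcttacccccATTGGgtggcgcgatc
B2m, chr2:122147487-122147685, plus strand: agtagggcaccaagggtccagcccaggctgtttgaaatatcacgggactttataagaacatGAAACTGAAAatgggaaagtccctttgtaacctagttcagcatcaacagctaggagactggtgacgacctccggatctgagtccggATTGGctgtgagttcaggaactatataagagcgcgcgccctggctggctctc
H2-Aa, chr17:34287824-34288023, minus strand: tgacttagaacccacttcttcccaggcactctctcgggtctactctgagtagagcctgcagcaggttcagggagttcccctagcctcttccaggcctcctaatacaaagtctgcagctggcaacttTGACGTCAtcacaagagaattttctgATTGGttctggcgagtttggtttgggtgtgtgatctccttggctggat
H2-Eb1, chr17:34305667-34305866, plus strand: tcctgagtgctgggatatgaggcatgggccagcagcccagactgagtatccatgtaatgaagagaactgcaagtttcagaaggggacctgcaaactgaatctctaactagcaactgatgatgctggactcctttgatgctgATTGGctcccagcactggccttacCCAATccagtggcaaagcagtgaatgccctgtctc

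The Y box was in the windows of 19 of 22 class I heavy chain genes and of 8 of 8 class II chain genes, against 41.1% of all 27025 genes with a window. In B2m a Y box began 53 bases before the start, and an ISRE, the letters bound by interferon-activated factors, began 139 bases before it. The exact ISRE letters were found in 2 of 22 class I heavy chain and 0 of 8 class II chain windows, beside 3.99% of all genes. The X2 form TGACGTCA lay in the H2-Aa stretch. An exact X2 form was in 2 of 8 class II chain and 0 of 22 class I heavy chain windows, beside 3.06% of all genes. Variants of these letters were not searched. A window without a match, for the ISRE as for the X2 box, can therefore still hold such an element, and no difference between the classes is read from these counts. The exact kappa B letters were the rarest, in 9 of the 27025 genes, and 3 of those 9 were the class I genes H2-K1, H2-D1 and H2-Q6. The 30 bases around that match are set out because H2-D1 and H2-Q6 share nearly all of them with H2-K1, at 29 and 28 identical positions.
H2-K1, chr17:34000438-34000467, minus strand: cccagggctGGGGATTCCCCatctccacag
H2-D1, chr17:35262914-35262943, plus strand: cccagggctGGGGATTCCCCatctcctcag
H2-Q6, chr17:35424668-35424697, plus strand: cccatggctGGGGATTCCCCatctccccag
Such matches are letters in a window and do not show that a factor was bound in BAT.

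The question put to the counts was whether cachexia changed these genes, and whether class I and class II changed differently. Of the 57 members, 15 had no count in any library, 21 had counts but were too low for the test, and 21 passed the low-count filter of edgeR. None of the 21 tested members passed the test of CAC against CTR, with 0 at an edgeR adjusted p below 0.05 against 0.932% of all 9876 genes tested. The count was also 0 with DESeq2 and with limma-trend. At an unadjusted p below 0.05 there was 1 member, H2-D1, against 12.9% of all genes. The log2 fold changes of the tested members ran from -0.32 to 0.58 with a median of 0.01, and 11 were above and 10 below 0, while the median over all genes tested was 0.00. The sign of Cd74, H2-Aa, H2-Ab1, H2-Ke6, Tap1, Tapbp, Tapbpl, Erap1 and Psmb10 turned in at least 1 of the alternative fits, most often with 1 library left out, so no direction is read from these genes. For 0 of the 21 did the 4 CAC libraries lie wholly above or below the 4 CTR libraries, a separation that 7.04% of all genes tested showed. In whole tissue, fewer cells of a type and less RNA per cell cannot be told apart, here and in each result that follows.

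**Figure D1:**
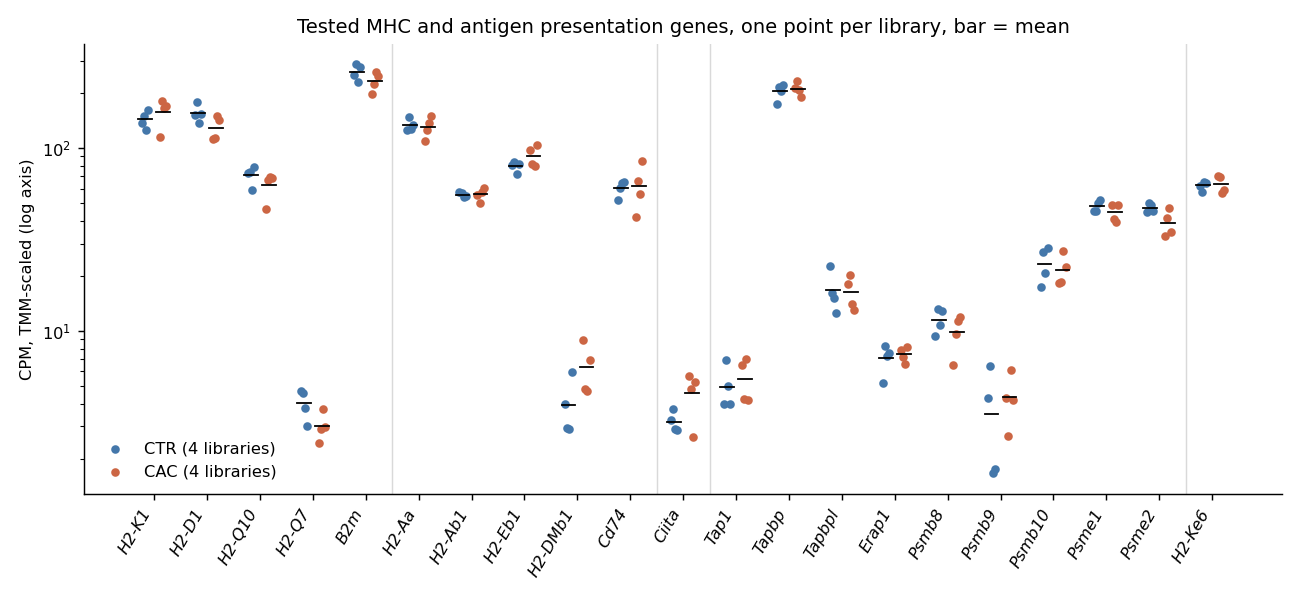
Level of the 21 tested members in each library, as TMM-scaled CPM on a log axis, with CTR in blue, CAC in orange and a bar at the mean of 4 libraries. In every gene the points of both groups overlap. By mean level the genes range from B2m, at 198 to 287 CPM, down to H2-Q7, at 2.43 to 4.71 CPM.

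Among classical class I genes, H2-K1 (ENSMUSG00000061232.17, chr17:33996017-34000347) was at 137, 150.5, 125 and 162 CPM in CTR replicates 1 to 4 and at 115, 180.3, 166 and 171 CPM in the CAC replicates. Its log2 fold change was 0.14 (standard error 0.13, 95% interval -0.13 to 0.40, edgeR adjusted p = 0.714). It was 0.26 without CAC replicate 1 and 0.07 without CTR replicate 3 or CAC replicate 2. The CAC libraries held both the lowest and the 3 highest H2-K1 values. H2-D1 (ENSMUSG00000073411.13, chr17:35262730-35267499), the other classical heavy chain of this strain, was at 152, 178, 137 and 153 CPM in the CTR libraries and at 112, 113, 149.7 and 143 CPM in CAC. Its log2 fold change was -0.26 (standard error 0.12, 95% interval -0.50 to -0.01, edgeR adjusted p = 0.36), and 0.0418 was the value of that test before adjustment. Here 2 CAC libraries lay below every CTR library and the other 2 within the CTR range. B2m (ENSMUSG00000060802.9, chr2:122147686-122153083), the light chain common to all class I molecules, was at 251, 287, 231 and 278 CPM in the CTR libraries and at 198, 225, 259.9 and 249 CPM in CAC. Its log2 fold change was -0.17 (95% interval -0.39 to 0.05, edgeR adjusted p = 0.545), but -0.09 without CAC replicate 1 and -0.23 without CAC replicate 3. A loss of B2m RNA to under 0.77 of the CTR level or a gain to over 1.04 of it lay outside the interval.

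The remaining class I heavy chain entries are the Q, T and M genes, H2-Bl and H2-K2, many of which encode non-classical molecules with restricted expression. Of these 28 entries, 13 had no count, 13 were counted but not tested and 2 were tested. H2-Q10 (ENSMUSG00000067235.15), known as a secreted class I molecule of the liver, was at 72.7, 73.8, 59.1 and 78.4 CPM in the CTR libraries and at 46.5, 67.0, 69.3 and 68.4 CPM in CAC (log2 fold change -0.17, edgeR adjusted p = 0.634). With single libraries left out, that fold change lay between -0.25 (without CTR replicate 3) and -0.06 (without CAC replicate 1). H2-Q7, a Qa-2 antigen gene, was at 3.01 to 4.71 CPM in the CTR libraries and 2.43 to 3.74 CPM in CAC (log2 fold change -0.32, 95% interval -1.0 to 0.37, edgeR adjusted p = 0.747). Fractional counts, which arise where reads are divided among genes, stood on H2-Q10 in 4 libraries and on H2-Q7 in all 8, so their split among near-identical genes is uncertain. None of the untested entries exceeded 14.5 counts in a library. In a single library, a count of 0 allows a level of up to 0.66 to 1.62 CPM, the equivalent of 3 counts, and the entries without a count were at 0 in all 8.

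None of the 4 class II chain genes tested passed the test. H2-Ab1 (ENSMUSG00000073421.7, chr17:34257689-34269419), the beta chain of the I-A molecule, was at 57.2, 57.0, 53.8 and 54.9 CPM in the CTR libraries and at 55.7, 50.0, 57.7 and 60.3 CPM in CAC. Its log2 fold change of 0.01 had a 95% interval from -0.22 to 0.24 (edgeR adjusted p = 0.985), that is a ratio between 0.86 and 1.18. The alpha chain H2-Aa (ENSMUSG00000036594.16, chr17:34282744-34287823) was at 125, 148, 127 and 134 CPM in the CTR libraries and at 109.7, 126, 137 and 149 CPM in CAC (log2 fold change -0.03, 95% interval -0.26 to 0.20, edgeR adjusted p = 0.941). As a ratio, the interval of H2-Aa ran from 0.83 to 1.15, close to that of its partner. H2-Eb1 (ENSMUSG00000060586.12, chr17:34305867-34316674), the beta chain of I-E, was at 80.8, 84.2, 71.9 and 82.0 CPM in the CTR libraries and at 97.2, 81.8, 80.2 and 104 CPM in CAC (log2 fold change 0.19, 95% interval -0.05 to 0.43, edgeR adjusted p = 0.53). H2-Eb1 had a log2 fold change of 0.12 without CAC replicate 4 and 0.24 without CAC replicate 3. Its partner H2-Ea, which C57BL/6 mice carry as a defective gene, had counts between 0 and 5 per library. GENCODE M21 names that entry H2-Ea-ps, whereas the count table does not mark it as a pseudogene. Reads on H2-Eb1 held fractions in 7 libraries.

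Cd74 (ENSMUSG00000024610.16, chr18:60803848-60812652), the invariant chain that guards the class II groove, varied between libraries, mostly within CAC. It was at 52.2, 60.2, 64.3 and 65.0 CPM in the CTR libraries and at 42.2, 65.9, 56.0 and 85.1 CPM in CAC, so the CAC group held both the lowest and the highest library. The log2 fold change was 0.05 (95% interval -0.29 to 0.39, edgeR adjusted p = 0.94), but 0.19 without CAC replicate 1, -0.01 without CTR replicate 1 and -0.14 without CAC replicate 4. H2-DMb1 (ENSMUSG00000079547.5), a chain of the H2-DM molecule that exchanges the invariant chain remnant for peptide, was at 3.96, 2.93, 2.90 and 5.95 CPM in the CTR libraries and at 8.92, 4.79, 4.69 and 6.97 CPM in CAC. Its log2 fold change was 0.58 with a wide interval of -0.07 to 1.24 (edgeR adjusted p = 0.454), and 0.92 without CTR replicate 4. Its partner chain H2-DMa was too low for the test, with counts of 9, 17.5, 8 and 17.5 in CTR and 6, 1, 12 and 7 in CAC. H2-DMb2, H2-Oa, H2-Ob and H2-Eb2 reached at most 4.20 counts, and H2-Pa and H2-Pb had none. In C57BL/6 mice H2-O is known mainly from B cells, whose markers were low here, as described further down.

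**Figure D2:**
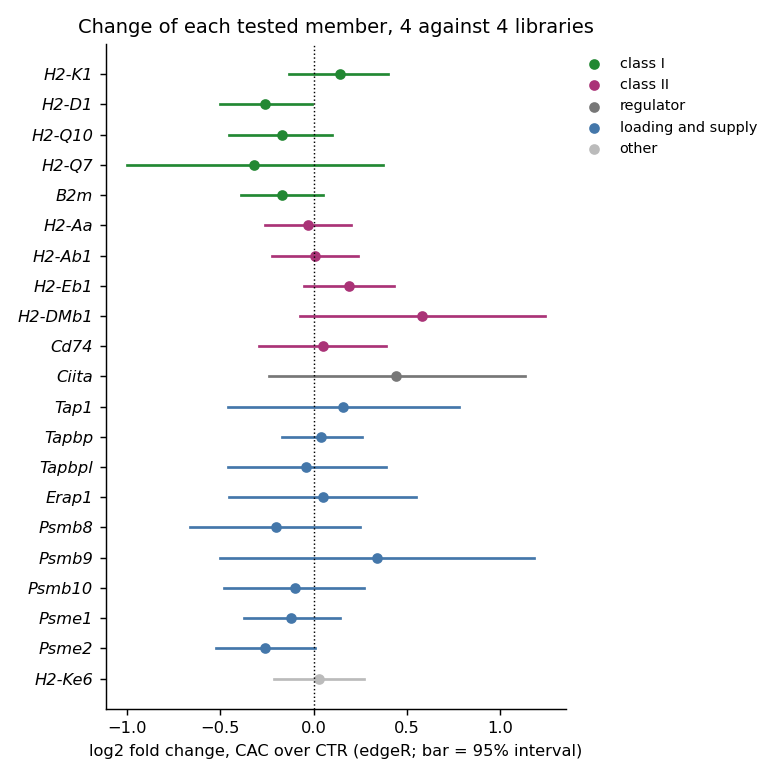
Log2 fold change of CAC over CTR for each tested member (point) with its 95% interval (line) from edgeR with 4 libraries per group, colored by role. The intervals of 20 of the 21 genes include 0, that of H2-D1 ends at -0.01, and the widest belong to genes of few counts such as Psmb9 and H2-Q7.

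Class I and class II were then set against each other. The 30 class I heavy chain entries summed to 378, 416, 334 and 406 CPM in the CTR libraries and to 277, 370.4, 396 and 392 CPM in CAC, and the 12 class II entries to 272, 299, 262 and 281 CPM in the CTR libraries and to 275, 265, 284 and 324 CPM in CAC. The log2 ratio of both sums within a library was 0.47, 0.48, 0.35 and 0.53 in CTR and 0.01, 0.49, 0.48 and 0.28 in CAC, that is 0.46 ± 0.08 against 0.31 ± 0.22 (SD, n = 4). The groups overlapped, and the difference of -0.14 was smaller than the SD of 0.22 among the CAC libraries. It became -0.04 without CAC replicate 1, the library with the lowest class I sum. The median log2 fold change was -0.21 over the 4 class I heavy chain genes tested, with 1 above and 3 below 0, and 0.10 over the 4 class II chain genes tested, with 3 above and 1 below 0. The class II median was -0.12 over 10 genes without a low-count filter and -0.01 without CTR replicate 3, so its direction was not stable. The class I median was -0.40 over 15 genes without the filter and -0.12 without CAC replicate 1. These medians describe few genes and 0 members of either class passed the test.

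The same comparison was made for single pairs of genes, in which gene length cancels between groups. The log2 ratio of B2m to Cd74 was 2.11 ± 0.19 for CTR and 1.93 ± 0.33 for CAC (SD, n = 4, exact two-sided permutation p = 0.4), and that of H2-K1 to H2-Ab1 was 1.35 ± 0.16 and 1.47 ± 0.33 (exact two-sided permutation p = 0.571). Their differences were -0.17 and 0.12, and single libraries set their size. The first was -0.04 without CAC replicate 4, -0.27 without CAC replicate 1 and -0.26 without CTR replicate 3 or CAC replicate 3, and the second was 0.00 without CAC replicate 2 and 0.26 without CAC replicate 1. Over the 5 gene pairs compared, including the 3 below, Benjamini-Hochberg adjustment gave 0.857 to 0.971, and the smallest p that 4 against 4 libraries allow is 0.0286. Adjusted over 5 pairs, a single pair at that smallest p could not pass 0.05, so these tests say little on a shift between class I and class II.

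**Figure D3:**
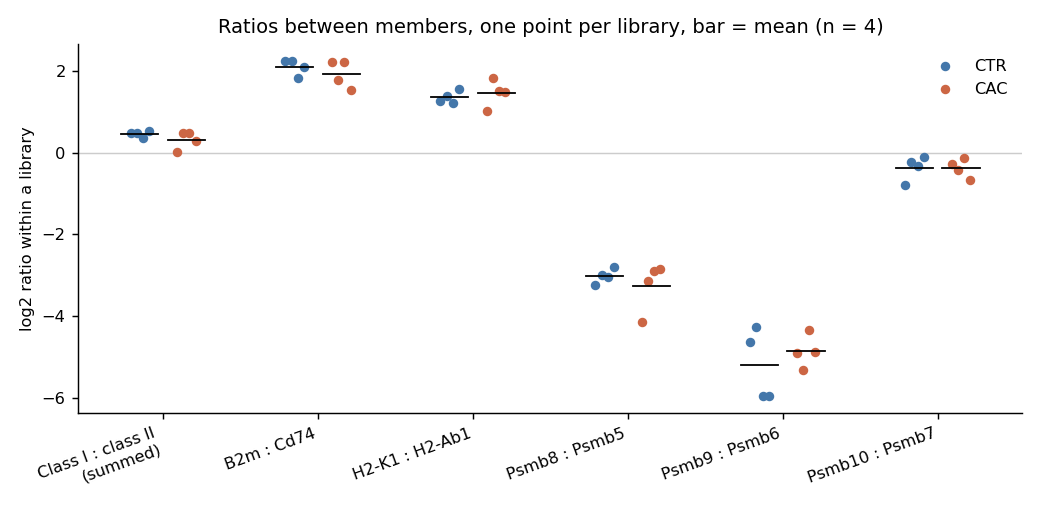
Log2 ratio within each library for the summed class I to class II chains and for 5 gene pairs, with CTR in blue, CAC in orange and a bar at the mean of 4 libraries. The groups overlap in all 6 ratios. CAC replicate 1 is the lowest point for the summed ratio (0.01), for H2-K1 to H2-Ab1 (1.03) and for Psmb8 to Psmb5 (-4.15).

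The immunoproteasome replaces the catalytic subunits of the standard proteasome when interferon is present and favors peptides that fit class I. Psmb8 was at 9.36, 13.1, 10.8 and 12.8 CPM in the CTR libraries and at 6.49, 9.57, 11.4 and 11.9 CPM in CAC (log2 fold change -0.20, edgeR adjusted p = 0.759). The Psmb8 fold change was -0.07 without CAC replicate 1 and -0.29 without CAC replicate 3 or CAC replicate 4. Psmb10 was at 17.3, 26.9, 20.7 and 28.4 CPM in the CTR libraries and 18.4, 18.6, 27.3 and 22.3 CPM in CAC (log2 fold change -0.10, edgeR adjusted p = 0.869). Psmb9 was at 4.32, 6.39, 1.66 and 1.76 CPM in the CTR libraries and at 4.32, 2.66, 6.15 and 4.18 CPM in CAC (log2 fold change 0.34, edgeR adjusted p = 0.784), so its CTR libraries alone spanned the whole range. That fold change ran from 0.06 without CTR replicate 4 and 0.08 without CAC replicate 3 to 0.84 without CTR replicate 2. Relative to the constitutive subunits they displace, the log2 ratio of Psmb8 to Psmb5 was -3.02 ± 0.18 for CTR and -3.26 ± 0.61 for CAC (SD, n = 4, exact two-sided permutation p = 0.686). That difference of -0.24 was 0.06 without CAC replicate 1 and -0.37 without CAC replicate 4. The ratio was -5.21 ± 0.89 and -4.86 ± 0.40 for Psmb9 to Psmb6 (exact two-sided permutation p = 0.457), and -0.37 ± 0.30 and -0.37 ± 0.23 for Psmb10 to Psmb7 (exact two-sided permutation p = 0.971). The Psmb9 to Psmb6 difference of 0.35 was 0.09 without CTR replicate 3, 0.10 without CTR replicate 4, 0.18 without CAC replicate 3, 0.54 without CTR replicate 1 and 0.66 without CTR replicate 2. The Psmb10 to Psmb7 difference of -0.01 lay between -0.15 and 0.09 with each library left out. Psme1 and Psme2, which form the PA28 cap of the proteasome, had differences of -0.12 and -0.26 on the log2 scale (adjusted p from edgeR 0.745 and 0.408). Psme1 was at 45.2, 45.4, 50.0 and 51.7 CPM in the CTR libraries and at 48.9, 40.9, 39.3 and 49.0 CPM in CAC, with 2 CAC libraries below every CTR library. Its difference of -0.12 was -0.06 without CAC replicate 3 and -0.16 without CAC replicate 4. Psme2 was at 44.8, 50.1, 48.6 and 45.4 CPM in the CTR libraries and at 33.2, 41.5, 46.9 and 34.9 CPM in CAC, where 3 of 4 CAC libraries lay below every CTR library, and 2 libraries held fractional counts of Psme2. The Psme2 difference of -0.26 was -0.37 without CAC replicate 3 and -0.19 without CAC replicate 1 or CAC replicate 4.

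No tested gene of peptide transport and loading passed the test. Tapbp, which encodes tapasin and bridges TAP to class I, was the most abundant member of this group at 175, 217, 206 and 220.4 CPM in the CTR libraries and 212, 234, 209 and 189.8 CPM in CAC (log2 fold change 0.04, 95% interval -0.17 to 0.26, edgeR adjusted p = 0.916). Its homolog Tapbpl, a peptide editor, was at 12.6 to 22.7 CPM in the CTR libraries and 13 to 20.2 CPM in CAC (edgeR adjusted p = 0.966). Tap1, a subunit of the transporter, was at 3.96, 6.92, 4.98 and 3.97 CPM in the CTR libraries and 6.49, 4.25, 7.03 and 4.18 CPM in CAC (log2 fold change 0.16, 95% interval -0.46 to 0.78, edgeR adjusted p = 0.88), and its partner Tap2 was not tested, at counts of 1, 5, 1 and 4.5 in CTR and 1, 2, 4 and 2 in CAC. Erap1, which trims peptides in the endoplasmic reticulum, was at 5.22, 8.26, 7.26 and 7.61 CPM in the CTR libraries and 7.84, 7.18, 6.59 and 8.19 CPM in CAC (edgeR adjusted p = 0.957). Tap1 and Psmb9 are read from opposite strands with RefSeq starts 225 bases apart and overlap in GENCODE M21, as 23 of the 57 members overlap another gene. The strand setting of the counting is not given in the sources used here.

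Of the transcriptional regulators, Ciita was at 3.24, 3.73, 2.90 and 2.87 CPM in the CTR libraries and 5.68, 4.79, 2.64 and 5.23 CPM in CAC (log2 fold change 0.44, 95% interval -0.24 to 1.13, edgeR adjusted p = 0.618). The Ciita fold change was 0.68 without CAC replicate 3 and 0.33 without CAC replicate 4. In 3 of 4 CAC libraries Ciita lay above every CTR library, and in the other below them all. Nlrc5 was not tested, at counts of 5, 16, 3 and 9 in CTR and 5, 2, 9 and 3 in CAC. H2-Ke6 (Hsd17b8), the enzyme gene, was at 62.4, 57.8, 65.6 and 64.2 CPM in the CTR libraries and 70.8, 69.9, 56.5 and 58.9 CPM in CAC (log2 fold change 0.03, edgeR adjusted p = 0.95). Whether levels of different genes should be divided by gene length depends on which part of a transcript is read. Per kilobase of merged GENCODE M21 exon, the mean level over all 8 libraries was 288 CPM for B2m, 57.3 for Tapbp, 55.1 for H2-D1, 51.4 for H2-K1, 43.9 for H2-Eb1, 36.5 for Cd74, 34.7 for H2-Aa and 21.7 for H2-Ab1, while Tap1, Psmb9, Erap1 and Ciita lay between 0.407 and 1.07. Without that division the mean levels were 247 CPM for B2m, 208 for Tapbp, 151 for H2-K1 and 142 for H2-D1. The study's methods name a digital mRNA-seq service and do not state which part of a transcript it reads. The part read, like another annotation release, could alter the order and the gaps between genes.

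Other genes of the pathway were followed in 7 lists. Of 68 genes tested, 44 had a log2 fold change above and 24 below 0, and 0 passed an edgeR adjusted p of 0.05. At an unadjusted p below 0.05 there were 7 higher and 3 lower, against 7.01% and 5.93% of all genes tested. In class II processing, 8 of 10 tested genes were above 0, led by cathepsin S (Ctss), the protease that trims the invariant chain. Ctss was at 13.3, 11.7, 11.6 and 10.8 CPM in the CTR libraries and at 18.4, 17.5, 29 and 16.4 CPM in CAC, without overlap of the groups (log2 fold change 0.81, standard error 0.20, 95% interval 0.40 to 1.23, edgeR adjusted p = 0.0548). It was called in 3 of 16 alternative fits, which were those without CAC replicate 1 (edgeR adjusted p = 0.0491), without CAC replicate 4 (0.0392) and without a low-count filter (0.00652), and not with DESeq2, limma-trend or the other 6 libraries left out in turn. Cathepsin Z (Ctsz), a lysosomal protease, and Cst3, a secreted cathepsin inhibitor, had differences of 0.34 and -0.21 on the log2 scale (adjusted p from edgeR 0.204 and 0.421).

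Class I loading and quality control had 8 of 10 tested genes above 0, with the oxidoreductase Pdia3 at 0.28, the chaperone Canx at 0.21 and the folding sensor Uggt1 at 0.17 (edgeR adjusted p = 0.43, 0.435 and 0.58). Among 11 peptide supply genes tested, the insulin-degrading enzyme Ide had a log2 fold change of -0.42, the peptidase Blmh of 0.35 and the proteasome assembly factor Pomp of 0.09 (edgeR adjusted p = 0.279, 0.309 and 0.771). Of 17 MHC transcription and interferon signalling genes tested, 10 were above 0, and the smallest p values belonged to Jak1, Irf2 and Irf9 at 0.25, 0.33 and 0.36 on the log2 scale (adjusted p from edgeR 0.341, 0.365 and 0.424). Among other MHC-like molecules, not all of which present antigen, Cd1d1, which shows lipids to NKT cells, was at 61.3 ± 5.86 CPM in the CTR libraries and 48.2 ± 8.85 CPM in CAC (SD, n = 4, log2 fold change -0.37, edgeR adjusted p = 0.227). Procr and Mr1, the latter presenting vitamin B metabolites, had differences of 0.89 and -0.50 on the log2 scale (adjusted p from edgeR 0.178 and 0.392). Of 8 costimulation genes only Cd274, encoding PD-L1, was high enough to test (log2 fold change -0.03, edgeR adjusted p = 0.967).

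Interferon-induced genes gave no common direction, with 8 above and 6 below 0 of 14 tested. Rsad2, an antiviral protein, was at 16.2, 24.5, 22.4 and 22.7 CPM in the CTR libraries and at 33.5, 25.5, 37.5 and 28.9 CPM in CAC (log2 fold change 0.55, edgeR adjusted p = 0.111). Cxcl9, a chemokine typical of interferon-γ, was at 11.5, 13.3, 16.6 and 13.4 CPM in the CTR libraries and at 5.95, 5.85, 13.8 and 9.41 CPM in CAC (log2 fold change -0.55, edgeR adjusted p = 0.328). The former set the groups apart and the latter did not, and neither passed the test. The nuclease gene Samhd1 did not pass either (log2 fold change 0.32, edgeR adjusted p = 0.407).

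The cells that could carry class II were checked by their markers. Of 11 macrophage markers 9 were tested, all 9 with a log2 fold change above 0 and a median of 0.51, and 2 passed the test, against 0.739% of all genes called as higher. These were C1qa and C1qb, subunits of the complement protein C1q. C1qa rose from 37.4, 39.2, 43.6 and 51.2 CPM in CTR to 86.0, 69.1, 80.6 and 69.9 CPM in CAC (log2 fold change 0.83, 95% interval 0.56 to 1.09, edgeR adjusted p = 0.00103), and C1qb rose by 0.98 on that scale (edgeR adjusted p = 0.00137). Csf1r, the macrophage growth factor receptor, did not pass (log2 fold change 0.48, edgeR adjusted p = 0.0778). The summed macrophage list was 227 to 257 CPM in the CTR libraries and 313 to 429.9 CPM in CAC and did not overlap, whereas the class II sum of the same libraries did. The log2 ratio of the class II sum to the macrophage list sum was 0.13, 0.27, 0.21 and 0.13 in CTR and -0.33, -0.24, -0.60 and -0.22 in CAC, lower in all 4 CAC libraries than in any CTR library. This ratio was formed after the values were seen and carries no test, and the macrophage list was written with the increase of the C1q genes already known.

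The other marker lists were read in the same way. The leukocyte genes Ptprc, Laptm5 and Cd52 had differences of 0.85, 0.62 and 0.76 on the log2 scale (adjusted p from edgeR 0.182, 0.182 and 0.254), and the list of 5 summed to 18.3 to 32.2 CPM in the CTR libraries and 29.5 to 42.9 CPM in CAC. Of 9 neutrophil markers 3 were tested and all 3 were called higher, beside 0.739% of all genes. All 3 were low in CTR and entered the test through their CAC counts, so that share is no fair comparison. The list summed to 6.12 to 6.92 CPM in the CTR libraries and 165 to 432 CPM in CAC. Most of that sum came from the calprotectin subunits S100a8, at 3.57 ± 0.838 CPM in the CTR libraries and 175 ± 85.7 CPM in CAC, and S100a9, at 1.60 ± 0.790 and 73.5 ± 28.1 CPM (SD, n = 4). The sum therefore does not count neutrophils, and which cells carried the RNA of these subunits was not tested. The third marker tested, Retnlg, was at 1.02 ± 0.773 and 10.7 ± 7.06 CPM. The other 6 (Ngp, Cxcr2, Csf3r, Ltf, Camp and Ly6g) were too low for the test. All 6 had a higher mean in CAC, at 0.208 to 2.21 CPM against 0 to 0.188 CPM. For 2 of them, Ngp and Cxcr2, the groups did not overlap, as for 7.04% of the more abundant genes that were tested. Dendritic cell markers summed to 23.0 to 32.6 CPM in the CTR libraries and 18.8 to 32.2 CPM in CAC, of which the defining genes Flt3, Xcr1 and Clec9a made up at most 1.05 CPM each in any library. Zbtb46 carried most of the dendritic cell sum, at 21.4 ± 3.20 CPM in the CTR libraries and 15.7 ± 4.44 CPM in CAC (SD, n = 4, log2 fold change -0.50, edgeR adjusted p = 0.254). That sum therefore rests mainly on Zbtb46 and does not count dendritic cells. Which cells carried the Zbtb46 RNA was not tested. B cell markers summed to 8.28 to 12.4 CPM and 5.41 to 11.4 CPM, most of it Ighm, and T and NK cell markers to 5.39 to 9.54 CPM and 6.62 to 8.51 CPM, with Cd3g at 0. The 7 endothelial markers summed to 1256 to 1286 CPM in the CTR libraries and 1036 to 1517 CPM in CAC, with 3 log2 fold changes above and 4 below 0 and a median of -0.02. The VEGF receptor Flt1 rose by 0.53 on the log2 scale (edgeR adjusted p = 0.0166), 1 call in 7 genes beside the 0.739% of all genes, whereas the VEGF receptor Kdr was at -0.32 (edgeR adjusted p = 0.259). The part that any of these cells had in the MHC levels was not tested.

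**Figure D4:**
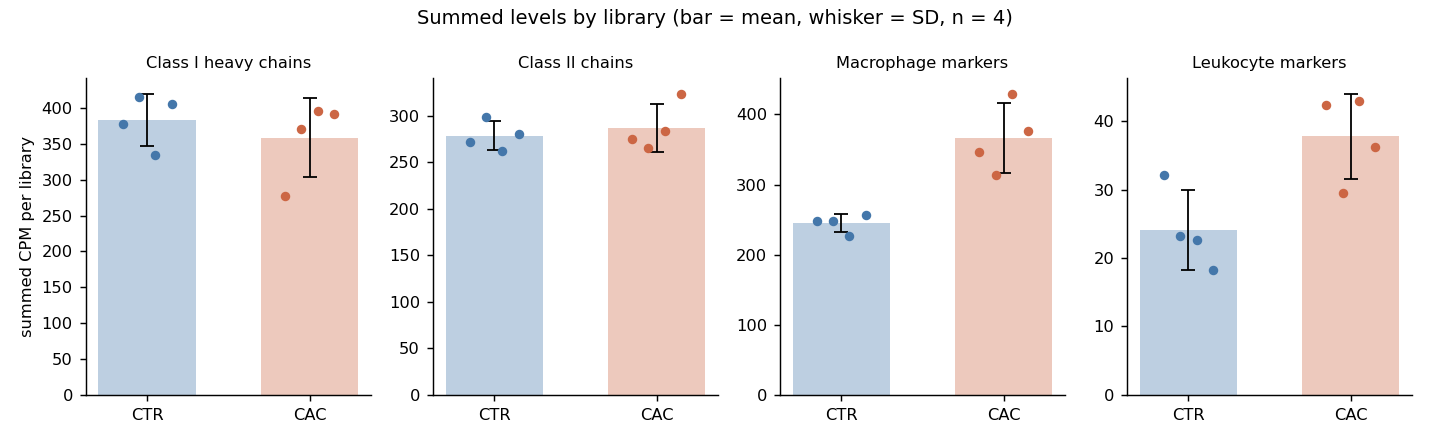
Summed CPM per library of the class I heavy chain entries, the class II chain entries, 11 macrophage markers and 5 leukocyte markers, with a bar at the mean of 4 libraries, a whisker of 1 SD and a point per library. Both MHC classes overlap between CTR and CAC, while the macrophage markers sit at 227 to 257 CPM in the CTR libraries and 313 to 429.9 CPM in CAC.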

How the data were processed

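RNA of BAT in 4 CTR and 4 CAC libraries was analysed. Per the labels and the study's methods, FastQC was the quality check, HISAT2 2.2.1 the aligner (mm10) and featureCounts the counter, set to keep multi-mapping reads. In the main deposited table are expected counts without normalization, and 25.1% to 28.4% of the nonzero values in a library are fractional. A second deposited table holds the authors' DESeq2-normalized signal.

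Counts were rounded, filtered with filterByExpr, TMM-normalized and tested for CAC against CTR with edgeR 4.0.16 (robust quasi-likelihood, R 4.3.3, no covariate) over 9876 genes, with Benjamini-Hochberg adjustment at 0.05. CPM were computed from the counts before rounding. Intervals are 95% intervals of the edgeR estimate. In simulated data of the same depth, 69 of 100 genes changed by a log2 of 1, 99 of 99 changed by 2, and 13 of 9431 unchanged genes were called. Gene pairs were compared on log2(CPM + 0.5) by exact permutation over 70 assignments of the libraries. Class sums and lists are described without a test. Alternatives were DESeq2 1.42.0, other normalizations and filters, dropped decimals, a replicate block, limma 3.58.1 (limma-trend) for log2 of the authors' signal plus 1, other sums and pseudocounts, and each library left out.

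The members and lists were chosen with earlier results of these data known. Values in every library are given for 20 members listed by name and for others with an unadjusted p under 0.05 or a mean of at least 20 CPM (22 in all), and pathway genes are named by an adjusted p under 0.05 or as the 3 smallest p of a list. The cell type lists held brown adipocyte, leukocyte, macrophage, dendritic cell, B cell, T and NK cell, neutrophil and endothelial genes. Of the Ensembl IDs, 91.4% match GENCODE M21 without the version, which gives the GRCm38 coordinates, and 0.061% with it. The study's methods speak of RefSeq genes, whereas the table carries Ensembl IDs, and the release is not given in the sources used here, so coordinates, exon lengths and overlaps are those of M21. The limits set by 3 counts cover counting error only, whereas the edgeR intervals include the spread between libraries.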

Additional observations from a re-analysis of the deposited data

Results flagged for a closer look

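In 1 of 60 groups of 4 libraries a single library lay far from the rest, and chance gives about 3.0 such groups, or 1 in 20. CAC replicate 1 held 46.5 CPM of H2-Q10, and the remaining CAC libraries 67.0 to 69.3 CPM. The same library had the lowest class I sum of all 8, at 277 CPM, the lowest B2m level and the lowest H2-K1 level.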

How the results depend on the processing

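No member tested was called in the 16 alternative fits, which tested 16 to 22 members each and 40 without a filter, so that the remaining members entered no fit. Over all genes, 92 were called, 351 without a low-count filter, and 42 to 135 with each library left out, the lowest without CTR replicate 1, and 60 without CAC replicate 3. With the replicate number as a block the count was 140. Same-numbered libraries did not deviate together (correlations from -0.0231 to 0.0355, with 4 of 8 libraries closest to their own number), so the numbers were not treated as pairs. The block gave 0 calls among the members and among the other pathway genes. In those pathway lists the count moved from 0 to 1, Ctss, without a filter and when CAC replicate 1 or CAC replicate 4 was left out (range 0 to 1). The class I median log2 fold change, -0.21 over 4 genes, was -0.40 without a filter, where 15 genes enter, and -0.28 to -0.12 with each library left out. The class II median log2 fold change, 0.10 over 4 genes, was -0.12 without a filter, where 10 genes enter, and -0.01 to 0.12 with each library left out. The difference in the class I to class II ratio was -0.66 with whole-count members only, a setting that leaves out H2-K1 and H2-D1 and sums to at most 1.66 CPM for class I. H2-D1 had an unadjusted p under 0.05 in 9 of its 16 alternatives, with a lowest edgeR adjusted p of 0.276. The same held for Psme2 in 5 of 16, H2-DMb1 in 3 of 15 and H2-K1 in 1 of 16, and for no other member tested in the main fit. The log2 fold change of H2-Ab1 changed sign in 6 of 16 and stayed between -0.02 and 0.06. At this depth a change by a log2 of 1 in genes of few counts, such as Psmb9 and Ciita, can be missed.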

Other observations

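The balance of the classical heavy chains was also computed. The log2 ratio of H2-K1 to H2-D1 was -0.14, -0.24, -0.13 and 0.08 in CTR and 0.03, 0.67, 0.15 and 0.26 in CAC, a mean of -0.11 ± 0.14 against 0.28 ± 0.28 (SD, n = 4). The groups overlapped, and the pair was picked after the values of both genes were seen, so no test is given. The H2-DM partner chains were at low counts, H2-DMb1 at 3.94 ± 1.43 CPM in the CTR libraries and 6.34 ± 2.02 CPM in CAC and H2-DMa at 3.77 ± 0.655 CPM and 2.43 ± 1.35 CPM (SD, n = 4).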
